A study of Arabidopsis thaliana with 6 samples.

Results

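WRKY transcription factors are plant proteins that bind DNA through a domain with a zinc finger and a conserved stretch that begins with tryptophan, arginine, lysine and tyrosine, the letters that name the family. The members were a list of 58 WRKY genes matched by locus tag, out of 26551 loci with usable values. They were sorted, by the usual naming of the family, into group I (11 genes), group II with its branches IIa (3), IIb (8), IIc (12), IId (7) and IIe (7), and group III (8). WRKY16 and WRKY19, whose domain is joined to parts of immune receptors, were kept apart as a pair.

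WRKY factors recognise a short DNA element, the W-box, which is common in promoters of defence genes and of WRKY genes themselves, so that members act on each other. Many are switched on by salicylic acid or by MAP kinase cascades, chains of protein kinases that carry signals from the cell surface, and some are bound by small VQ proteins. In seedlings the family is best known for immunity, and single members act in senescence, phosphate uptake, heat tolerance and the development of hairs and seeds.

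The study exposed wild-type Col-0 seedlings of Arabidopsis thaliana, aged 6 days and grown in shaken liquid medium, to 15 µM DMMTA (dimethylmonothioarsenate, a methylated arsenic compound that carries sulfur) for 6 h. Control seedlings of the same line and age received 0 µM for the same 6 h. Each group held 3 libraries of poly(A) RNA from whole seedlings, which the labels call biological replicates. Every level below is in TPM, a length-corrected level on the same total for every library, worked out from deposited RPKM. How reads shared by a gene's coding sequences were counted is not given in the sources used here, which limits comparison of levels between genes. Where several values are listed they stand in the order of replicates 1, 2 and 3.

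Domain counts and zinc finger form, read from the coding sequence, were compared with these groups and do not separate the branches of group II. Of the 11 group I genes, 10 coded for 2 WRKY domains, the exception being WRKY10, and all 37 genes of group II coded for 1. The zinc finger form typical of group III was found in 8 of 8 group III genes and in 0 of the other 50. A variant of the conserved stretch, with lysine in place of glutamine, was found in 2 of 58 genes, WRKY50 and WRKY51, both of which rose in DMMTA. The coding DNA of this stretch is shown for them beside WRKY33, the group I gene with the largest rise, with the glutamine or lysine codon in capitals (TAIR10.1, RefSeq annotation, coding strand, 5′ to 3′).
WRKY33 domain 1: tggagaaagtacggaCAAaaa
WRKY33 domain 2: tggagaaaatacggcCAGaaa
WRKY50: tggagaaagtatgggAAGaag
WRKY51: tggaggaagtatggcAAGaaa

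The W-box was searched as TTGACC or TTGACT on both strands in the 250 bases before each annotated gene start. The promoters shown are those of WRKY33, WRKY30 and WRKY45, 3 strongly raised members with at least 2 boxes each, and of the close relatives WRKY15 and WRKY7, of which 1 rose and 1 was not called. This choice does not stand for the family. WRKY17, WRKY29 and WRKY32 held 2 boxes each and were not called, while WRKY6, WRKY31, WRKY40 and WRKY50 rose with 0. W-boxes are in capitals, and a box on the opposite strand reads GGTCAA or AGTCAA. Each sequence is written 5′ to 3′ along the gene's own strand, from the TAIR10.1 genome and its RefSeq annotation.
WRKY33, chr2:16107985-16108234, plus strand: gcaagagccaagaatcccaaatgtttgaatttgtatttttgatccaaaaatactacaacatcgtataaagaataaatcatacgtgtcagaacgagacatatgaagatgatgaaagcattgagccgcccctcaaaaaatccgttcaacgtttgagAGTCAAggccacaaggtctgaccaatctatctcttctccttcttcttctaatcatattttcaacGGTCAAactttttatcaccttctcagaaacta
WRKY30, chr5:8154711-8154960, minus strand: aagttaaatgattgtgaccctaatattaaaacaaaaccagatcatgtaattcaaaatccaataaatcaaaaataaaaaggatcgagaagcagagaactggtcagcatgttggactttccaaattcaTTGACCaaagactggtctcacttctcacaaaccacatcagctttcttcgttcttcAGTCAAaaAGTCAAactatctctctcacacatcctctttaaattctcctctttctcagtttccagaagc
WRKY45, chr3:327413-327662, minus strand: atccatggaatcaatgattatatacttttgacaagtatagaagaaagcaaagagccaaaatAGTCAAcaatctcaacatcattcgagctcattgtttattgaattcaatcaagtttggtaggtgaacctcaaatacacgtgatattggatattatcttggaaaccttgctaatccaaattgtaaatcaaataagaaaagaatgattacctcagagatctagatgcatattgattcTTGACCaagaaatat
WRKY15, chr2:9924636-9924885, plus strand: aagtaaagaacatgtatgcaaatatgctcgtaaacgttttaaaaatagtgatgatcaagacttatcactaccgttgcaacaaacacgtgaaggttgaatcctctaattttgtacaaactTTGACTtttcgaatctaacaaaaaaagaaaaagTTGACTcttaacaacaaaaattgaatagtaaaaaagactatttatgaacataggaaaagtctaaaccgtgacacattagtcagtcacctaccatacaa
WRKY7, chr4:12571288-12571537, plus strand: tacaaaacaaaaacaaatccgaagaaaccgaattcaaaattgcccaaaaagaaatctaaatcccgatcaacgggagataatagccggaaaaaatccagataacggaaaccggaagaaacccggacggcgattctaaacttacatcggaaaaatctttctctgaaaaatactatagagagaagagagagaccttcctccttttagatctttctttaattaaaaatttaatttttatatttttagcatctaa
Counted from the gene start, the boxes began at -96 and -32 in WRKY33, at -124, -69 and -61 in WRKY30, at -189 and -15 in WRKY45 and at -131 and -98 in WRKY15. No match was found in the window of WRKY7, which says only that these letters are not in it. In the 1000 bases before the gene start WRKY7 and WRKY15 held 2 boxes each.

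The comparison of DMMTA with control asks which WRKY transcripts differ after 6 h of exposure. WRKY transcripts were mostly higher in DMMTA: 23 of the 54 tested members rose, 3 fell and 28 were not called, while 17.4% of all 18813 loci tested rose and 10.5% fell. At least 2-fold rises on the log2 scale were called for 15 of the 54 tested members, against 6.19% of all loci tested. A fall of that size was called for 1 of the 54, against 3.24%. The rises were led by WRKY55, WRKY75, WRKY45, WRKY31, WRKY33 and WRKY30, and raised members were found in groups I, II and III. The falls were those of WRKY49, in group IIc, and of WRKY65 and WRKY69, both in group IIe. A call is a limma p under 0.05 after Benjamini-Hochberg adjustment over all 18813 loci, and adjusted p-values below are of this kind. Of all calls 62.3% were rises; with limma-voom on reads rebuilt from RPKM and scaled to equal totals the calls were 2829 rises and 2737 falls (50.8% rises), and 22 WRKY members rose and 5 fell.

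Log2 fold changes refer to TPM + 0.5, which understates changes of low genes, and they ran from -1.24 to 3.12 over the 54 tested members. Their median was 0.33, beside 0.04 over all loci tested. All DMMTA libraries lay above all controls for 27 of the 54 tested members, against 27.8% of all loci tested. They lay below all controls for 6 of the 54, against 18.6%. The filter (at least 1 TPM in at least 3 libraries) left out 4 members, WRKY10, WRKY12, WRKY13 and WRKY42. Another 4, WRKY8, WRKY31, WRKY41 and WRKY55, passed it through the DMMTA libraries alone, so their direction was in part set by the filter. Among the 50 members at 1 TPM or more in every library, 20 rose and 3 fell, with a median log2 fold change of 0.32.

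**Figure D1:**
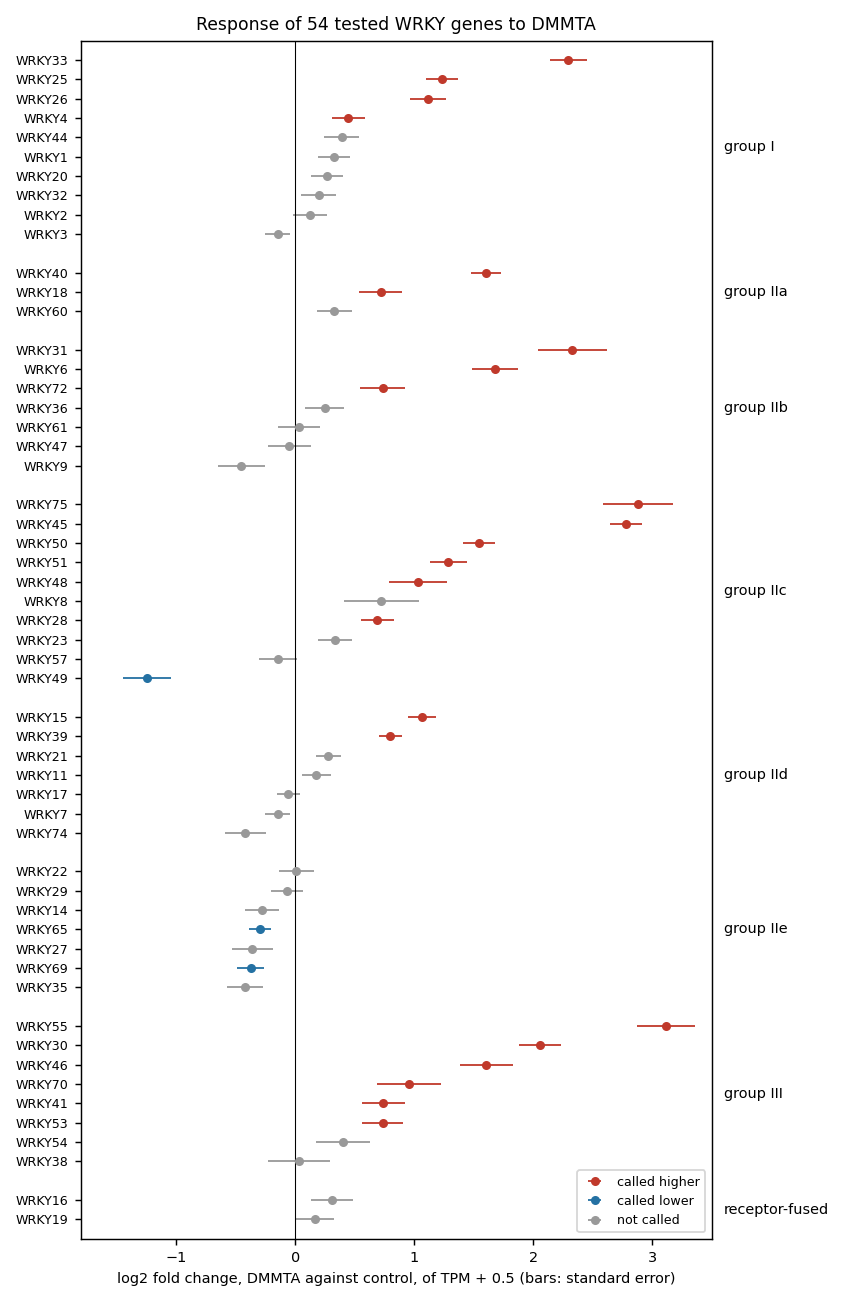
Log2 fold change of TPM + 0.5, DMMTA against control (horizontal axis), for the 54 tested WRKY genes ordered by group, with bars for the standard error and colour for the call. Groups III and IIc reach furthest to the right, WRKY49 at -1.24 furthest to the left, and all members of group IIe but WRKY22 lie below 0.

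The summed level of the family was 976, 762 and 706 TPM in the control libraries and 1470, 1418 and 1489 TPM in the DMMTA libraries. Every DMMTA library was thus above every control, with control replicate 1 nearest to them. WRKY70 was the most abundant member in all 3 controls and in DMMTA replicate 1, and WRKY33 in DMMTA replicates 2 and 3. By branch, the sums of group IIc stood at 57.2 to 79.0 TPM in control and at 206 to 234 TPM in DMMTA. Only the sums of group IIe were lower in DMMTA, at 87.8 to 95.6 TPM against 102 to 119 TPM in control.

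**Figure D2:**
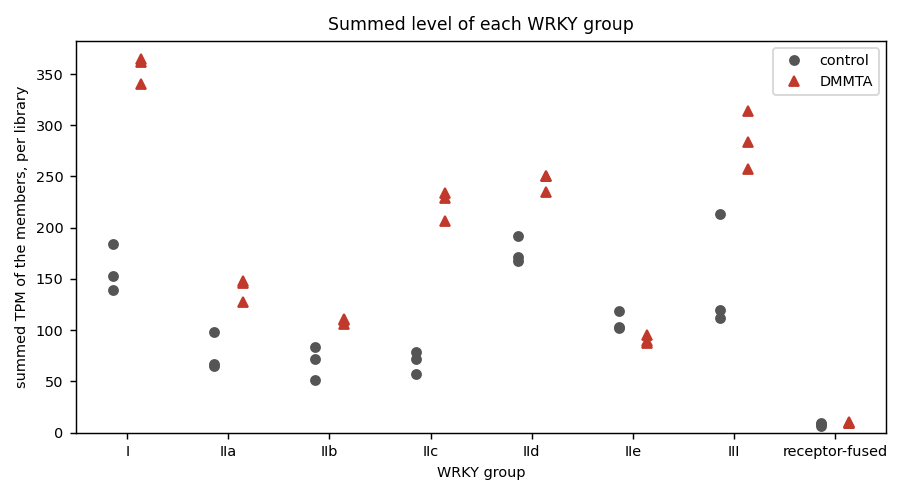
Summed TPM of the members of each WRKY group (vertical axis) in every library, controls as circles and DMMTA as triangles. In groups I to IId and III the DMMTA libraries lie above the controls, and in group IIe below them, with 1 control library of group III, at 213 TPM, standing apart from the other controls.

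Before the members are described singly, some features of the libraries need to be given. Estimated depth was 71500000 to 133000000 reads in control and 65200000 to 108000000 in DMMTA. Control replicate 1 held the highest control value for 38 of 54 members (70.4%), against 33.3% of all loci, and control replicate 3 the lowest for 39 (72.2%), against 51.2%. All 9 listed root hair markers fell, while 10.5% of all loci tested fell and 17.4% rose. COBL9 reached 1 TPM in every control but not in every DMMTA library, so its direction was in part set by the filter. The other 8 markers were at 1 TPM or more in every library. The summed level of the 9 markers was 179 to 207 TPM in control and 45.4 to 63.3 TPM in DMMTA. The largest of these falls were those of PRP3, a cell wall protein gene, 7.18-fold lower (log2 fold change -2.76 ± 0.25, SE, adjusted p = 0.000104), and of RHS13, 4.47-fold lower (-2.13 ± 0.13, adjusted p = 1.90e-05). The smallest, that of RHD6, was lost without any single control library or without DMMTA replicate 3 (adjusted p of 0.0596 to 0.108). Of 8 green tissue markers, LHCB2.1 rose 1.41-fold, GAPA fell 1.31-fold, RCA fell 1.31-fold and 5 were not called. Their summed level was 27270 to 31060 TPM in control and 23990 to 27090 TPM in DMMTA. The 3 green tissue calls were each lost in some fits that left out 1 library, with adjusted p up to 0.0837 for LHCB2.1 without DMMTA replicate 1, 0.128 for GAPA without DMMTA replicate 3 and 0.127 for RCA without DMMTA replicate 2. Fewer cells of a type and less RNA per cell cannot be told apart in whole seedlings, and the part of either marker list in the WRKY values was not tested.

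In group III, 6 of 8 members rose, and the median of its log2 fold changes was 0.85. Among its 6 members at 1 TPM or more in every library, which leaves out WRKY41 and WRKY55, 4 rose. WRKY55 (AT2G40740) stood at 1.203, 0.479 and 0.372 TPM in control and at 10.02, 8.76 and 9.24 TPM in DMMTA. The groups did not overlap, and the controls were near the lower limit of the filter. It was 13.6-fold higher (log2 fold change 3.12 ± 0.24, SE, n = 3 per group, limma adjusted p = 5.35e-05), and the ratio of means was 22-fold without control replicate 1. WRKY30 (AT5G24110), a gene of the early defence response, stood at 4.03, 3.01 and 3.32 TPM in control and at 18.9, 12.4 and 16.9 TPM in DMMTA. All DMMTA values were at least 3 times the highest control, and the difference was 4.66-fold (2.06 ± 0.18, adjusted p = 8.73e-05). WRKY46, which acts in basal resistance together with WRKY53 and WRKY70, stood at 17.8, 16.7 and 9.37 TPM in control and at 50.6, 41.5 and 40.4 TPM in DMMTA. Control replicate 3 was low, the groups stayed apart, and the rise was 3.02-fold (1.61 ± 0.23, adjusted p = 0.00106).

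WRKY70, a node between salicylic acid and jasmonic acid signalling, had the highest mean level of group III. Its values were 124, 54.8 and 62.8 TPM in control and 165, 129 and 148 TPM in DMMTA. Control replicate 1 came close to DMMTA replicate 2, and the rise was 1.83-fold (log2 fold change 0.96 ± 0.27, SE, n = 3 per group, limma adjusted p = 0.0301). The call was lost without control replicate 2 or 3 or any DMMTA library, at adjusted p of 0.0530 to 0.105. WRKY54, its closest relative in the family, stood at 22.4, 12.9 and 11.7 TPM in control and at 20.5, 17.4 and 22.6 TPM in DMMTA. Its groups overlapped through control replicate 1, and it was not called (0.40 ± 0.23, adjusted p = 0.222), but without that library its log2 fold change was 0.68 and it was called (adjusted p = 0.0130). WRKY54 and WRKY55 are neighbours on chromosome 2 of TAIR10.1, on opposite strands with their 3′ ends 919 bases apart.

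The senescence regulator WRKY53 rose 1.64-fold, from 27.9, 19.8 and 16.7 TPM in control to 36.6, 33.3 and 36.0 TPM in DMMTA (log2 fold change 0.73 ± 0.17, SE, limma adjusted p = 0.0141). Its relative WRKY41 rose 1.98-fold, from 1.32, 0.940 and 0.856 TPM to 2.28, 1.73 and 2.17 TPM (0.74 ± 0.18, adjusted p = 0.0160). Neither gene's groups overlapped, and both calls were lost without DMMTA replicate 1 or DMMTA replicate 3, at adjusted p of 0.05 to 0.0536 for WRKY53 and 0.0541 to 0.0628 for WRKY41. The coding sequences of WRKY41 and WRKY53, and of WRKY69, are overlapped by a gene on the opposite strand. The libraries were strand-specific, but whether counting used the strand is not given in the sources used here, so these 3 are uncertain. WRKY38 was not called, with log2 fold change 0.03 (adjusted p = 0.946) and overlapping groups. Because of WRKY41, WRKY53 and WRKY70, the count of raised group III genes was 3 without DMMTA replicate 1 and 3 without DMMTA replicate 3.

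Group IIc held the strongest rises after WRKY55, and also the largest fall: 6 of its 10 tested members rose and 1 fell, with a median log2 fold change of 0.88. WRKY75 (AT5G13080), known for phosphate starvation and senescence, stood at 5.30, 5.79 and 2.42 TPM in control and at 26.8, 42.3 and 35.8 TPM in DMMTA. The groups were far apart, with a 7.77-fold difference (log2 fold change 2.88 ± 0.29, SE, n = 3 per group, limma adjusted p = 0.000196). WRKY45 (AT3G01970), an activator of the phosphate transporter gene PHT1;1, stood at 11.6, 11.6 and 8.72 TPM in control and at 68.6, 76.0 and 82.2 TPM in DMMTA. It had the highest DMMTA mean of group IIc, and the rise of 7.10-fold (2.78 ± 0.14, adjusted p = 7.16e-06) had a smaller standard error than that of WRKY75.

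WRKY50 and WRKY51, the lysine variants, repress jasmonic acid responses when salicylic acid signalling is active. WRKY50 stood at 21.3, 15.5 and 15.8 TPM in control and at 49.6, 51.4 and 53.9 TPM in DMMTA, a 2.95-fold rise (log2 fold change 1.55 ± 0.13, SE, limma adjusted p = 9.04e-05). WRKY51 stood at 17.2, 14.04 and 11.0 TPM in control and at 33.6, 36.3 and 33.8 TPM in DMMTA, a 2.45-fold rise (1.29 ± 0.15, adjusted p = 0.000466). For both genes the lowest DMMTA library was well above the highest control. WRKY28, an activator of the salicylic acid synthesis gene ICS1, stood at 1.203, 1.32 and 1.28 TPM in control and at 2.33, 2.50 and 2.23 TPM in DMMTA, a 1.86-fold rise (0.69 ± 0.14, adjusted p = 0.00735). Its relative WRKY8 was not called, at 1.49, 1.04 and 0.444 TPM in control and 2.63, 1.98 and 1.19 TPM in DMMTA, with overlapping groups (0.72 ± 0.32, adjusted p = 0.123).

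WRKY48 stood at 5.01, 4.60 and 2.34 TPM in control and at 8.07, 9.46 and 7.49 TPM in DMMTA, a 2.09-fold rise (log2 fold change 1.03 ± 0.25, SE, limma adjusted p = 0.0147) that was lost without DMMTA replicate 2 (adjusted p = 0.0568). WRKY49 went the other way, from 3.68, 4.52 and 4.07 TPM in control to 1.13, 2.08 and 1.21 TPM in DMMTA. All DMMTA libraries were below all controls, 2.77-fold lower by the means (-1.24 ± 0.20, adjusted p = 0.00228). WRKY23 and WRKY57 were not called, at log2 fold changes of 0.33 and -0.15. The untested WRKY12, a gene of stem tissue, was at 0.888 ± 0.0297 TPM (SD, n = 3) in control and 0.413 ± 0.157 TPM in DMMTA, and WRKY13 at 0.390 ± 0.149 and 0.122 ± 0.0462 TPM. Both were under the filter, with all DMMTA libraries below all controls.

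**Figure D3:**
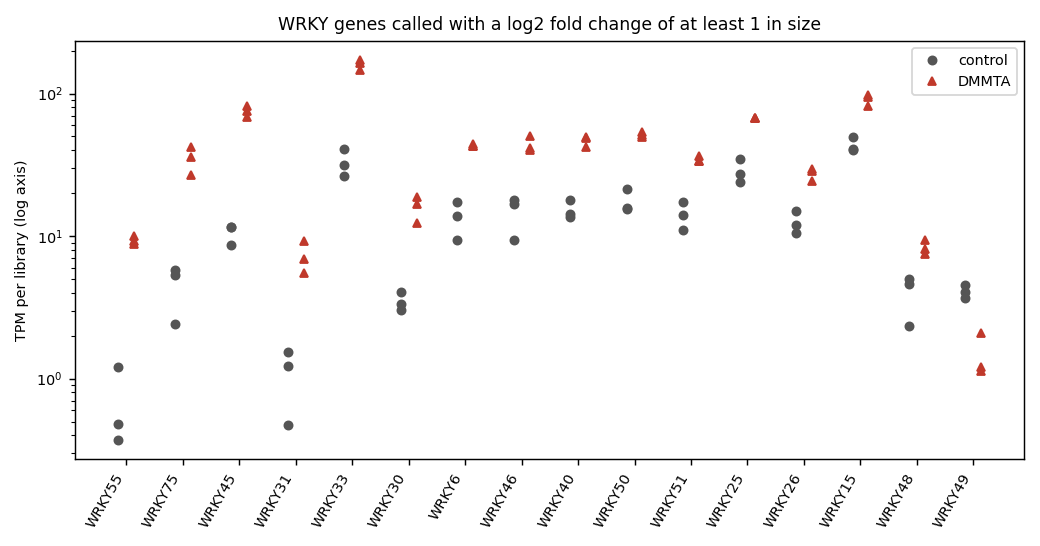
TPM in each library (log axis) of the 16 WRKY genes called with a log2 fold change of at least 1 in size, controls as circles and DMMTA as triangles. The 2 groups do not overlap for any of the 16 genes, and WRKY49 is the one with DMMTA below control.

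In group I, 4 of 10 tested members rose and none fell. WRKY33 (AT2G38470), which directs synthesis of the antimicrobial compound camalexin and defence against necrotrophic fungi, stood at 40.9, 26.5 and 31.5 TPM in control and at 165, 147 and 173 TPM in DMMTA. The lowest DMMTA library was over 3 times the highest control, and the rise was 4.90-fold (log2 fold change 2.29 ± 0.15, SE, n = 3 per group, limma adjusted p = 2.63e-05). WRKY25 and WRKY26 act with WRKY33 in heat tolerance. WRKY25 stood at 34.6, 27.2 and 24.1 TPM in control and at 66.9, 67.3 and 67.6 TPM in DMMTA, a 2.35-fold rise (1.24 ± 0.13, adjusted p = 0.000270) with the 3 DMMTA libraries nearly equal. WRKY26 stood at 15.1, 11.9 and 10.5 TPM in control and at 24.4, 29.6 and 28.6 TPM in DMMTA, a 2.20-fold rise (1.12 ± 0.15, adjusted p = 0.000801). The groups were apart for both.

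The related WRKY3 and WRKY4, both linked to defence against necrotrophs, differed in their calls. WRKY4 rose 1.36-fold, from 15.1, 11.4 and 10.8 TPM in control to 17.9, 16.1 and 16.9 TPM in DMMTA (log2 fold change 0.45 ± 0.14, SE, limma adjusted p = 0.0455). That call was lost without control replicate 2 or 3 or any DMMTA library, at adjusted p of 0.0895 to 0.129. WRKY3 stood at 16.1, 15.4 and 14.2 TPM in control and at 13.1, 13.8 and 14.2 TPM in DMMTA, and was not called (-0.15, adjusted p = 0.331). Of the rest, WRKY44 (TTG2), which acts in leaf hairs and the seed coat, had a log2 fold change of 0.39 (adjusted p = 0.0788), and WRKY1, WRKY2, WRKY20 and WRKY32 were between 0.12 and 0.33, none of them called. WRKY10, a gene of the developing seed, was at most at 0.0634 TPM in any library.

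The 3 genes of group IIa, WRKY18, WRKY40 and WRKY60, encode proteins that bind each other and hold back basal defence. WRKY40 (AT1G80840) stood at 17.9, 14.2 and 13.5 TPM in control and at 49.9, 42.3 and 48.6 TPM in DMMTA, a 3.09-fold rise with groups far apart (log2 fold change 1.60 ± 0.13, SE, n = 3 per group, limma adjusted p = 6.27e-05). WRKY18, the most abundant of the 3, stood at 60.4, 38.5 and 38.0 TPM in control and at 78.4, 65.2 and 78.2 TPM in DMMTA. Control replicate 1 was close to DMMTA replicate 2, and the 1.62-fold rise (0.72 ± 0.18, adjusted p = 0.0184) was lost without control replicate 2, control replicate 3, DMMTA replicate 1 or DMMTA replicate 3, at adjusted p of 0.0506 to 0.0713. WRKY60 stood at 19.6, 14.1 and 13.7 TPM in control and at 20.0, 20.0 and 19.1 TPM in DMMTA. It overlapped only with control replicate 1 and was not called (0.33, adjusted p = 0.129), but without that library it was called at a log2 fold change of 0.49 (adjusted p = 0.0201).

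In group IIb, 3 of 7 tested members rose, beside 17.4% of all loci tested. One of the raised genes, WRKY31, passed the filter through the DMMTA libraries alone. Of the 6 members at 1 TPM or more in every library, 2 rose. For these 6 the median change was 0.14 on the log2 scale. WRKY6 (AT1G62300), which acts in senescence and, with WRKY42, represses the phosphate exporter gene PHO1, stood at 17.4, 13.9 and 9.36 TPM in control and at 44.1, 42.6 and 42.7 TPM in DMMTA. The DMMTA libraries were nearly equal and the rise was 3.19-fold (log2 fold change 1.68 ± 0.19, SE, n = 3 per group, limma adjusted p = 0.000396). Its relative WRKY31 stood at 1.23, 1.53 and 0.475 TPM in control and at 5.53, 9.20 and 6.91 TPM in DMMTA, a 6.69-fold rise (2.33 ± 0.29, adjusted p = 0.000557) from low controls. WRKY42 stayed under the filter, at 0.222, 0.418 and 0.349 TPM in control and 0.750, 0.686 and 0.771 TPM in DMMTA, without overlap. WRKY72, a gene of basal resistance, rose 1.67-fold, from 10.11, 9.54 and 6.02 TPM to 13.6, 13.4 and 15.8 TPM (0.73 ± 0.19, adjusted p = 0.0211), a call lost without any DMMTA library, at adjusted p of 0.0503 to 0.0842. The related WRKY61 stood at 3.67, 2.99 and 2.27 TPM and at 2.84, 3.08 and 3.09 TPM, with overlapping groups (0.03, adjusted p = 0.914). WRKY36, WRKY47 and WRKY9 were not called either, at 0.25, -0.05 and -0.45. Without control replicate 2 WRKY9 was called lower (-0.63, limma adjusted p = 0.0407).

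Group IId, whose proteins can bind calmodulin, had 2 of 7 members higher. WRKY15 (AT2G23320), the most abundant, stood at 49.7, 40.3 and 41.0 TPM in control and at 82.2, 94.8 and 97.9 TPM in DMMTA, a 2.098-fold rise without overlap (log2 fold change 1.06 ± 0.12, SE, n = 3 per group, limma adjusted p = 0.000296). Its relative WRKY7 stood at 33.4, 29.9 and 27.0 TPM in control and at 26.8, 27.5 and 26.7 TPM in DMMTA and was not called (-0.15, adjusted p = 0.327). WRKY39 rose 1.76-fold, from 20.4, 21.5 and 21.7 TPM to 36.9, 39.9 and 35.0 TPM (0.80 ± 0.10, adjusted p = 0.000480), with groups apart. Its relative WRKY74 stood at 2.07, 1.80 and 1.38 TPM and at 1.31, 1.09 and 1.12 TPM and was not called (-0.42, adjusted p = 0.106), although all its DMMTA libraries were below the controls. WRKY11, WRKY17 and WRKY21 were between -0.06 and 0.28, not called.

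Group IIe had no raised member, 2 of 7 lower and a median log2 fold change of -0.30. WRKY65, the most abundant, stood at 51.7, 46.6 and 47.0 TPM in control and at 38.7, 37.6 and 41.8 TPM in DMMTA, 1.23-fold lower (-0.30 ± 0.09, SE, n = 3 per group, limma adjusted p = 0.0466). WRKY69 stood at 12.4, 12.5 and 13.1 TPM in control and at 9.76, 8.79 and 10.5 TPM in DMMTA, 1.31-fold lower (-0.38 ± 0.11, adjusted p = 0.0384). Neither gene's groups overlapped, and both falls were small. The call of WRKY69 was lost without any single library (adjusted p of 0.0642 to 0.144), and that of WRKY65 without any library but control replicate 3 (0.0635 to 0.156). WRKY14, WRKY27 and WRKY35 had log2 fold changes of -0.28, -0.36 and -0.42 and were not called. For WRKY14 and WRKY35 all DMMTA libraries were below all controls. Some other fits called them lower: limma-voom on rebuilt reads for WRKY35 (adjusted p = 0.0255) and WRKY14 (0.0425), and limma after median-of-ratios scaling for WRKY35 (0.0492). So did limma without control replicate 3 for WRKY14 (0.0453) and without control replicate 2 for WRKY27 (0.0304). WRKY22 and WRKY29, which act below the MAP kinase cascade of flagellin perception, were at 0.01 and -0.07, not called.

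The receptor-fused genes showed no call. WRKY16 stood at 5.07, 5.45 and 3.43 TPM in control and at 5.63, 6.25 and 5.44 TPM in DMMTA, with overlapping groups (log2 fold change 0.31, limma adjusted p = 0.229), and WRKY19 had a log2 fold change of 0.16 (adjusted p = 0.487).

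Close relatives were also compared by their ratio. Ratios of TPM within a library were taken for 21 listed pairs, and in 13 of them the control and DMMTA ranges did not overlap. With 3 libraries against 3, a two-sided exact permutation test cannot go below p = 0.1, which is the value each of these 13 reached. Of the 19 listed pairs with both genes tested, 12 (63.2%) did not overlap, beside 72.1% of all 1431 pairs of tested WRKY genes, so close relatives did not stand out by this count. WRKY7 was at 0.657 to 0.742 of WRKY15 in control and at 0.273 to 0.326 in DMMTA. In group IIa, WRKY18 was 2.70 to 3.38 times WRKY40 in control and 1.54 to 1.61 times in DMMTA, and WRKY40 went from 0.913 to 1.01 times WRKY60 to 2.12 to 2.55 times. The order WRKY18 first therefore held in all 6 libraries, while WRKY40 stood level with WRKY60 in control and above it in DMMTA.

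Among the other pairs, WRKY25 was nearly level with WRKY33 in control, at 0.763 to 1.03 of it, and at 0.392 to 0.457 in DMMTA. WRKY6 was 9.08 to 19.7 times WRKY31 in control and 4.64 to 7.98 times in DMMTA. WRKY3 was above WRKY4 in every control, at 1.07 to 1.35, and below it in every DMMTA library, at 0.731 to 0.858. The ratios of WRKY45 to WRKY75 (2.01 to 3.61 and 1.80 to 2.56), of WRKY50 to WRKY51 (1.10 to 1.43 and 1.41 to 1.60) and of WRKY25 to WRKY26 (2.28 to 2.30 and 2.28 to 2.75) overlapped between the groups.

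**Figure D4:**
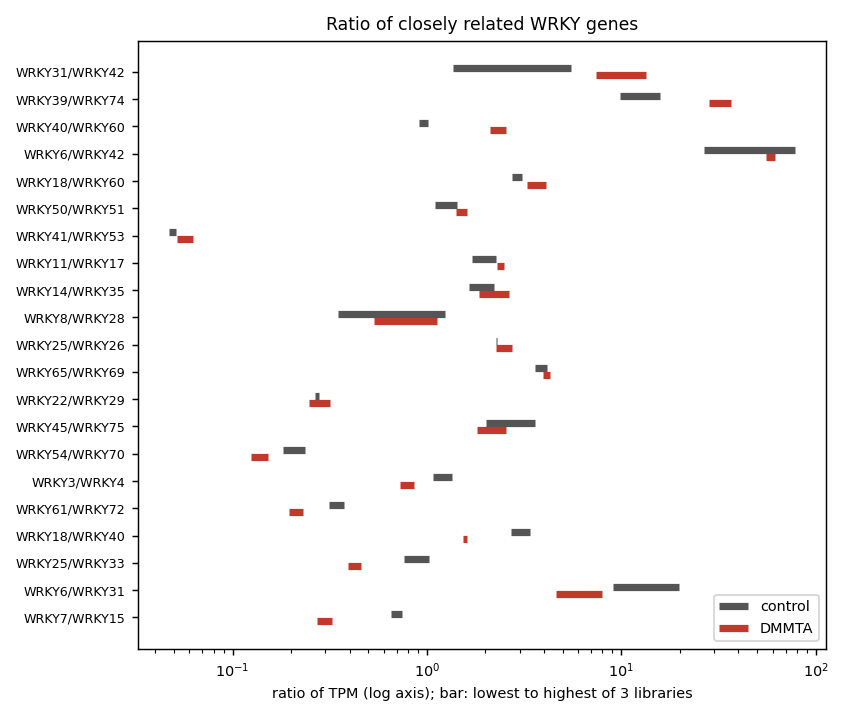
Range over 3 libraries of the ratio of TPM (log axis) for 21 pairs of related WRKY genes, controls in grey and DMMTA in red. The ranges are apart in 13 pairs, with WRKY7/WRKY15 furthest to lower ratios (0.657 to 0.742 against 0.273 to 0.326), and they overlap in 8, such as WRKY45/WRKY75.

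Genes that act with WRKY factors were described from listed names. These lists and the tissue marker lists were chosen with earlier results of these data known. Their counts are therefore a description and no test against all loci. As background, 17.4% of all loci tested rose and 10.5% fell, with a median log2 fold change of 0.04. In the MAP kinase cascade, 12 of 16 listed genes rose and none fell, with a median log2 fold change of 0.57. Not all listed genes encode kinases. The phosphatase genes MKP1 (log2 fold change 0.69, limma adjusted p = 0.0243) and AP2C1 (0.39, adjusted p = 0.0393) were listed and are among the 12. The largest rise was in the kinase gene MPK11, from 7.02 ± 2.42 to 49.5 ± 7.49 TPM (SD, n = 3), 7.04-fold (2.77 ± 0.23, SE, limma adjusted p = 6.46e-05), and next came MKK4, whose product activates MPK3 and MPK6, 2.25-fold (1.15 ± 0.18, adjusted p = 0.00190). MPK3, whose product phosphorylates WRKY33, rose 2.19-fold. The count was 6 without DMMTA replicate 3. Of 29 annotated VQ genes 21 could be tested, 14 rose and none fell, with a median of 0.74. Among the 8 untested VQ genes, all under the filter, DMMTA libraries were all below the controls in 5, among them AT2G44340 (control 1.27 ± 0.693 TPM, DMMTA 0.0597 ± 0.0580 TPM), and all above in 1. The largest rises were in AT1G17147, 4.89-fold (2.23 ± 0.20, adjusted p = 9.98e-05), and AT1G78410, 4.53-fold (2.17 ± 0.13, adjusted p = 1.53e-05).

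Of 13 listed targets of WRKY33, 12 were tested, 9 rose and none fell, beside 17.4% and 10.5% of all loci tested. The median log2 fold change of the tested targets was 1.54. The list was not split by whether WRKY33 activates or represses a target, so the count does not tell how WRKY33 acted on them. Among the raised genes, ACS2 and CYP82C2 passed the filter through the DMMTA libraries alone, and of the 9 targets at 1 TPM or more in every library 7 rose, with a median of 1.02. PAD3, the gene of the last enzyme of camalexin synthesis, stood at 34.3, 38.1 and 15.7 TPM in control and at 229, 218 and 247 TPM in DMMTA, 7.87-fold higher (3.05 ± 0.29, SE, n = 3 per group, limma adjusted p = 0.000133). CYP71A12, a cytochrome P450 gene of the same route, stood at 12.2, 4.46 and 2.69 TPM in control and at 164, 293 and 254 TPM in DMMTA, 36.8-fold higher (5.30 ± 0.45, adjusted p = 7.55e-05) and 66.2-fold without control replicate 1. Its close relative CYP71A13 stood at 21.5, 22.2 and 5.19 TPM in control and at 36.9, 30.1 and 18 TPM in DMMTA, with overlapping groups (0.97 ± 0.51, adjusted p = 0.191). These P450 genes are near copies, and how reads shared by both were counted is not given in the sources used here, so their separate values are uncertain.

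In the salicylic acid pathway, 11 of 16 listed genes rose and none fell, beside 17.4% and 10.5% of all loci tested. The median log2 fold change of the list was 0.96. PBS3, which acts in salicylic acid synthesis, rose 4.93-fold, from 11.8 ± 7.05 to 58.1 ± 13.7 TPM (SD, n = 3; 2.39 ± 0.37, SE, limma adjusted p = 0.00186), and the regulator gene CBP60G 3.41-fold (1.85 ± 0.30, adjusted p = 0.00234). PR1, the marker of salicylic acid response, was not called, at 1044, 411 and 380 TPM in control and 344, 251 and 252 TPM in DMMTA. All its DMMTA libraries were below the controls (-0.97 ± 0.35, adjusted p = 0.0707), and control replicate 1 was far above the other controls, as it was for WRKY70. By the means PR1 was 2.17-fold lower, and 1.40-fold lower without control replicate 1, while limma-voom on rebuilt reads called it lower (adjusted p = 0.0407). PR2, PR5, ALD1 and NIMIN1 were not called either, with overlapping groups and log2 fold changes of -0.12, -0.04, 0.31 and 1.06. NIMIN1 was called higher without control replicate 1 (limma adjusted p = 0.0024). The calls of NPR1, NPR4 and FMO1 were lost without DMMTA replicate 3, at adjusted p of 0.0568 to 0.116.

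The phosphate exporter gene PHO1, the target that WRKY6 and WRKY42 repress, fell 3.08-fold, from 72.1, 66.8 and 57.6 TPM in control to 21.3, 22.7 and 19.8 TPM in DMMTA (log2 fold change -1.60 ± 0.11, SE, limma adjusted p = 3.42e-05). The groups were far apart. PHO1 moved opposite to WRKY6, but a part of WRKY6 in this fall was not tested. Of all loci tested, 3.24% had a called fall of at least 2-fold on the log2 scale. The other listed transporter genes, PHT1;1 and PHT1;4, had no usable value. Of the epidermal cell fate genes, with which WRKY44 works, 6 of 7 were tested and 1 fell, EGL3, beside 10.5% of all loci tested. Its fall was 1.88-fold (-0.71 ± 0.18, adjusted p = 0.0207). The call was lost without control replicate 1, control replicate 3, DMMTA replicate 2 or DMMTA replicate 3 (adjusted p of 0.0512 to 0.0802). EGL3 reached 1 TPM in every control but not in every DMMTA library, so its direction was in part set by the filter. Among the 5 genes at 1 TPM or more in every library none fell. The untested gene, GL3, was under the filter, at 0.840 ± 0.117 TPM (SD, n = 3) in control and 0.406 ± 0.144 TPM in DMMTA. All its DMMTA libraries were below all controls. Of the defence and senescence targets FRK1, SAG12 and SAG13, FRK1 and SAG13 were tested and not called. Without control replicate 1 FRK1 was called higher (log2 fold change 1.11, adjusted p = 0.0194), and the ratio of means of SAG13 went from 1.12-fold to 1.72-fold without control replicate 2.

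**Figure D5:**
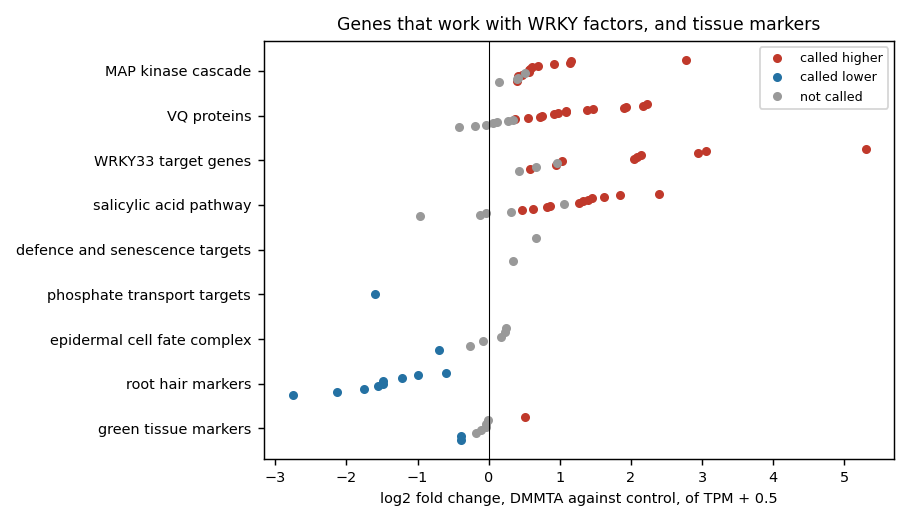
Log2 fold change of TPM + 0.5, DMMTA against control (horizontal axis), of each tested gene in the listed partner, target and tissue marker groups, coloured by call. The MAP kinase cascade, VQ, WRKY33 target and salicylic acid lists lie mostly to the right of 0, with CYP71A12 at 5.30, and all 9 root hair markers to the left.

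W-boxes were counted over all members as a description of the promoters. At least 1 box lay in the 250 upstream bases of 21 of 58 members (36.2%), beside 28.4% of 27443 annotated promoters. Among the raised members 12 of 23 had a box (52.2%), while 38.9% of all raised loci did. None of the 3 lower members had one, beside 23.9% of all lower loci, and 3 genes are too few to set against that share. Of the 28 members not called, 8 had a box (28.6%), beside 27.0% of all loci not called. Boxes were absent from the window in several members with large rises, such as WRKY31, WRKY40, WRKY6 and WRKY50. In a window of 1000 bases, 22 of 23 raised members (95.7%) and 22 of 28 not called (78.6%) held a box, beside 74.9% of all raised loci and 66.6% of all loci not called.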

How the data were processed

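Per the labels' protocols, poly(A) RNA of seedlings was made into strand-specific libraries. DESeq2 is named in the submitters' processing notes without version or role. The sources used here do not give the aligner, the counting or the genome build. The deposited tables, 1 row per coding sequence, hold RPKM and FPKM values that the authors computed. Of 48350 rows, 1884 (3.90%) with displaced or emptied cells were left out. RPKM was summed per locus and rescaled to 1000000 per library (TPM here).

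Loci reaching 1 TPM in 3 or more libraries were fitted as log2(TPM + 0.5) in limma 3.58.1 (R 4.3.3; trended prior, group as the sole term) with calls at adjusted p under 0.05 (Benjamini-Hochberg). The fit was tested on simulated data. The rows used gave no counts, so depth was worked out from the spacing of low values. Some displaced rows still held a read count, and these set the range that was searched. The depth kept was the one that put the largest share of low values within 0.2 of whole reads. That share, 91.2% to 95.7%, is thus no separate check of the depth.

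Promoters and domains were read from TAIR10.1, whose annotation gives the same number of coding sequences for 26443 of 26444 shared loci. Members and lists were chosen with earlier results of these data known. Named genes are members called at 2-fold or more, each group's largest calls and most abundant member, relatives with different calls, each list's largest calls, and PAD3 and CYP71A13. PR1, MPK3 and some members not called were named after their values were seen. Alternatives were other filters, pseudocounts, scalings, libraries left out, the replicate number as a block, FPKM, limma-voom and a 2-fold threshold.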

Additional observations from a re-analysis of the deposited data

How the results depend on the processing

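Of the 26 called members, 15, all higher, kept their call in all 15 alternative fits. WRKY28 (higher) and WRKY49 (lower) kept it in 14 and were left out by the filter at 5 TPM, 9 lost it in at least 1, 7 others were called in at least 1, and none reversed. Leaving out 1 library at a time gave 17 to 25 higher and 1 to 3 lower members, and 2076 to 3138 higher and 1132 to 1577 lower loci of all tested, 3208 to 4668 together, with the fewest without DMMTA replicate 3. Without both replicate 3 libraries, the shallowest, 17 members were higher and 1 lower, and 2690 loci were called (1843 and 847). Calls at 2-fold or more numbered 15 and 1 among members and 1775 over all loci (1165 and 610). With no filter, WRKY4, WRKY18, WRKY48, WRKY53, WRKY70 and WRKY72 were not called, at adjusted p of 0.0739 to 0.138. The replicate block, with replicate number as a term, gave 24 higher and 2 lower members and 3539 and 2242 loci, with WRKY8 (adjusted p = 0.0134) and CYP71A13 (0.00952) called higher and PR1 lower (0.00455). Same-numbered libraries correlated at 0.243, 0.334 and 0.0824 in their deviations from the group means, each best with its own number, a hint from the data and not the design. Median-of-ratios scaling gave 22 and 4 members and 3111 and 2353 loci (56.9% of calls higher), limma-voom on rebuilt reads 22 and 5 and 2829 and 2737 (50.8%), beside 62.3% as reported.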
